A study of Arabidopsis thaliana with 34 samples.

Results

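The mRNA of Arabidopsis thaliana seedlings that carry vrn2-5 and prt6-1 together was compared with that of Col-0 seedlings, the accession used as wild type. Of the 34 samples of the series, 6 entered this comparison, 3 labelled as the double mutant and 3 labelled Col-0, and all genes of the deposited seedling table were used. They belong to a set of 12 seedling mRNA libraries that also holds 3 of prt6-1 and 3 of vrn2-5, which were used to place the double mutant beside its single mutants. All were made from whole seedlings, so fewer cells of a type and less RNA per cell cannot be told apart. Nothing in the labels ties a replicate to a planting of its own, so p-values measure only how far these samples spread, and that spread may be technical. How old the plants were, their light and temperature, and how many seedlings went into a library are not given here.

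PRT6 is an E3 ubiquitin ligase of the N-degron pathway, in which the first amino acid of a protein decides its stability. For proteins that begin with methionine and cysteine, plant cysteine oxidases (PCO) use oxygen to oxidise the exposed cysteine, arginyl transferases (ATE) add arginine, and PRT6 marks the protein for the proteasome. Known substrates are the group VII ethylene response factors (RAP2.2, RAP2.3, RAP2.12, HRE1 and HRE2), which switch on the hypoxia genes, and VRN2, a subunit of Polycomb repressive complex 2, which places the repressive histone mark H3K27me3. Loss of PRT6 is known to stabilise these proteins in air, and vrn2-5 is a mutant allele of VRN2.

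The table gives normalized reads, that is, reads per gene divided by a size factor for each library. The 6 libraries held 1258658 to 24034410 reads. Replicates 1 and 3 of vrn2-5 prt6-1 and replicate 3 of Col-0 were deep (20006773 to 24034410 reads), whereas replicate 2 of vrn2-5 prt6-1 and replicates 1 and 2 of Col-0 were shallow (1258658 to 1786079 reads), with 1 read worth 3.54 to 4.58 normalized reads. Depth was therefore uneven between the genotypes, and differences within deep and within shallow libraries are given where they matter. The deep ones rest on replicate 3 alone for Col-0, and the shallow ones on replicate 2 alone for vrn2-5 prt6-1. Depth and replicate cannot be told apart in them. VRN2 (chromosome 4, 9476069 to 9479878 in TAIR10) was at 62.9, 36.7 and 76.8 normalized reads in vrn2-5 prt6-1 and at 116, 163 and 135 in Col-0. All double-mutant libraries lay below all Col-0 libraries, with a log2 difference of -1.21 (SE 0.242) that missed the threshold (limma, Benjamini-Hochberg adjusted p = 0.159, against 0.0293 by DESeq2). PRT6 (chromosome 5, 473868 to 482942) was at 122, 59.6 and 94.4 in vrn2-5 prt6-1 and was listed at 0, 46.0 and 57.7 in Col-0. Its RNA was not lower in the double mutant (limma adjusted p = 1), so that label is not checked by this gene.

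In the double mutant a small set of genes changed, most of them upward and by large factors. Differences are on the scale of log2(normalized reads + 5), which understates the change of low genes, and a gene is called where the adjusted p of limma is under 0.05. Of 16820 genes tested, 31 rose and 4 fell, which is 0.208% of the genes tested, 0.184% upward and 0.0238% downward. Leaving out 1 library moved the total to between 23 (without vrn2-5 prt6-1 replicate 1) and 53 (without Col-0 replicate 3), and the genes that fell numbered 16 by DESeq2 and 17 with replicate 3 as a term. Without adjustment, 872 genes (5.18%) had a p under 0.05, 2.94% higher and 2.24% lower. In 9.29% of genes the 3 double-mutant libraries did not overlap the 3 Col-0 libraries, 5.23% lying above and 4.06% below. The median difference over all genes was 0.01, and 51.6% of genes were positive. Of the 31 genes that rose, 19 belonged to a list of 45 hypoxia genes, 1 belonged to the glyoxylate list and 11 were in none of the lists. In all 35 called genes the 3 double-mutant libraries lay on one side of the 3 Col-0 libraries. Their sign within deep and within shallow libraries was thereby fixed and adds no support. EdgeR and DESeq2 on the recovered reads called all 35 as well. Of the 35, 13 lost their call with the 6 libraries alone and 5 with depth class as a term. With 1 in place of 5 added to the normalized reads, 7 lost it. In every planned setting, 20 of the 35 were called, counting a gene left untested as not called.

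**Figure D1:**
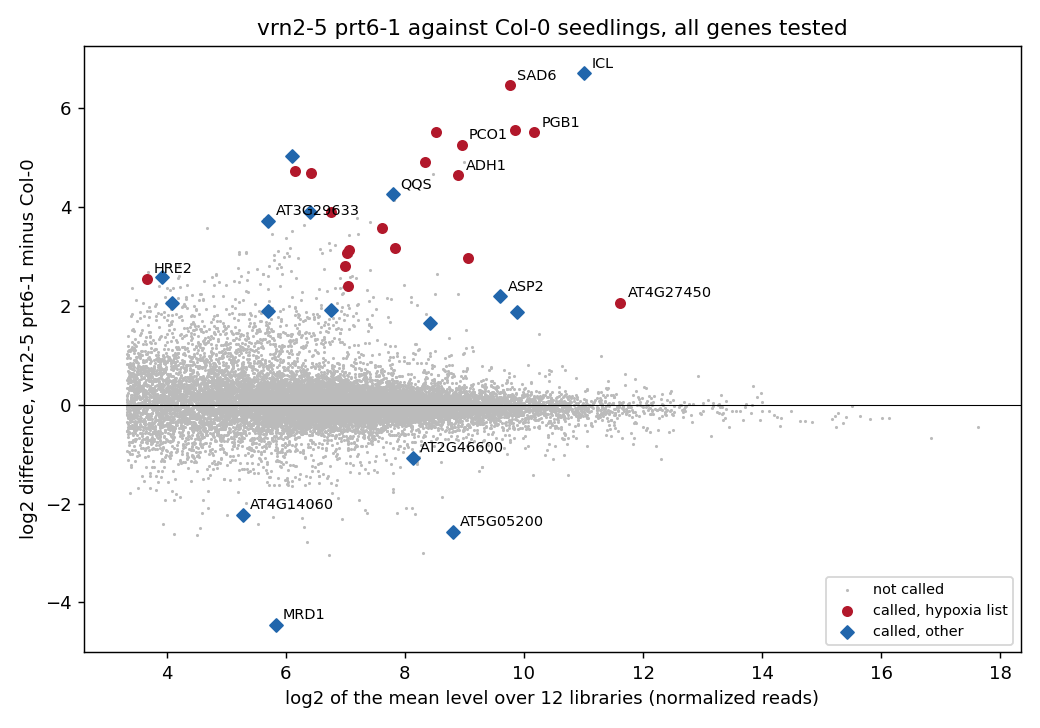
Log2 difference between vrn2-5 prt6-1 and Col-0 (vertical axis) against the log2 of the mean level over 12 libraries (horizontal axis), 1 point per gene tested. The 31 genes that rose have differences of 1.64 to 6.69, and 19 of them are members of the hypoxia list (circles); the 4 that fell reach -4.45 for MRD1.

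Of the 45 hypoxia genes, 43 were in the table and 42 passed the minimum mean of 10 normalized reads. Of these 42, 19 rose and 0 fell, against 0.184% and 0.0238% of all genes tested, and the median difference was 2.55, with 37 of 42 positive. Within deep libraries the median was 2.75, and within shallow libraries it was 1.97. The list was chosen with results of these samples known, so its count is a description and not independent evidence of its direction.

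Among genes of oxygen sensing and transcription, 4 of 7 tested members rose and 0 fell, with a list median of 2.74. PCO1 (AT5G15120, chromosome 5, 4898641 to 4900734), which encodes a plant cysteine oxidase, was at 963, 931 and 1010 normalized reads in vrn2-5 prt6-1 and at 15, 31.9 and 17.6 in Col-0. The 3 double-mutant libraries lay close together and far from Col-0, and the log2 difference was 5.25 (SE 0.236, limma adjusted p = 1.76e-06). PCO2 (AT5G39890), its close relative, was at 633, 697 and 1061 in vrn2-5 prt6-1 and at 11.2, 10.6 and 15.3 in Col-0, a log2 difference of 5.50 (SE 0.348, limma adjusted p = 2.58e-05). LBD41, a LOB-domain transcription factor, was at 775, 798 and 1323 in the double mutant, against 82.5, 202 and 92.9 in Col-0. The groups did not overlap, and the difference was 2.96 (limma adjusted p = 0.00734). HRE2, a group VII factor, was low in both genotypes, with 251 reads over the 3 double-mutant libraries and 3 over the 3 Col-0 libraries. Allowing for depth, that is a ratio of 39.8 with an exact 95% counting interval of 13.5 to 195, and the fitted difference of 2.54 passed the test (limma adjusted p = 0.0191). HRE2 lost its call without vrn2-5 prt6-1 replicate 1 or 3 and without Col-0 replicate 1 or 2.

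The other 3 members of that group did not pass. HRA1, a trihelix factor that restrains RAP2.12 activity, was at 163, 119 and 250 in vrn2-5 prt6-1 and at 37.5, 21.2 and 11 in Col-0 (difference 2.74, limma adjusted p = 0.213, against 0.119 by edgeR and 0.00054 by DESeq2). HRE1, the paralogue of HRE2, was at 70.7, 45.8 and 89.5 in the double mutant, against 63.7, 31.9 and 47.6 in Col-0, and these ranges overlapped. NAC102, a NAC-domain factor, was at 735, 724 and 659 in the double mutant and at 926, 807 and 951 in Col-0, so its libraries stood apart in the other direction (difference -0.34, limma adjusted p = 0.804).

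Of the genes of fermentation, sugar use and nitric oxide, 3 of 9 tested members rose, 0 fell, all 9 were positive and the median was 1.75. PGB1 (AT2G16060), a phytoglobin that scavenges nitric oxide, was at 2542, 2210 and 2892 in vrn2-5 prt6-1 and at 41.2, 53.1 and 60.3 in Col-0. Per kilobase of gene length its mean was 2576 normalized reads in the double mutant and 52.1 in Col-0, which placed it at rank 139 and rank 9042 of 17830 genes. The log2 difference was 5.50 (SE 0.370, limma adjusted p = 4.09e-05). ADH1 (AT1G77120, chromosome 1, 28975255 to 28977417), alcohol dehydrogenase, was at 733, 477 and 1442 in vrn2-5 prt6-1 and at 15, 28.3 and 45.9 in Col-0. Replicate 3 was the highest library in both genotypes, and the difference was 4.63 (SE 0.543, limma adjusted p = 0.00344). PDC1, pyruvate decarboxylase, which acts just before ADH1 in ethanol fermentation, rose by 2.79 (limma adjusted p = 0.0158), with 234, 156 and 337 in the double mutant and 22.5, 49.6 and 21.4 in Col-0. PDC1 was no longer called without vrn2-5 prt6-1 replicate 1 or 3 or without Col-0 replicate 1.

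SUS4, a sucrose synthase, was listed at 253, 0 and 178 in vrn2-5 prt6-1 and at 0 in every Col-0 library. It was not called (limma adjusted p = 0.675), and without the shallow double-mutant replicate 2 the difference was 5.44 (limma adjusted p = 0.000147). SUS1, a near relative with which SUS4 may share reads, was listed at 27.7, 0 and 23.8 in the double mutant and at 0 in every Col-0 library. LDH, lactate dehydrogenase, was at 58.9, 64.2 and 83.3 in the double mutant, against 45, 31.9 and 48.2 in Col-0, and did not pass (difference 0.66, limma adjusted p = 0.872). PDC2, ALAAT1 and PFK6 had differences of 0.32, 0.14 and 0.20, and none of the 3 passed.

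In the group of signalling, transport and lipid genes, 3 of 10 tested members rose and 0 fell, with a median of 0.84. SAD6 (AT1G43800, chromosome 1, 16577521 to 16579722), a stearoyl-acyl carrier protein desaturase, was at 1247, 1582 and 2827 in vrn2-5 prt6-1 and at 11.2, 35.4 and 7.79 in Col-0. Its difference of 6.45 (SE 0.513, limma adjusted p = 0.000149) was the largest among the hypoxia genes tested. ACO1, which makes ethylene from its precursor, was at 238, 91.7 and 236 in the double mutant and was listed at 0, 0 and 8.66 in Col-0 (difference 4.67, limma adjusted p = 0.00369). CML38, a calmodulin-like calcium sensor, was at 232, 151 and 320 in the double mutant, against 48.7, 46.0 and 25.1 in Col-0, and rose by 2.40 (limma adjusted p = 0.0182). It lost its call without vrn2-5 prt6-1 replicate 1 or 3 and without Col-0 replicate 2. NIP2;1, an aquaporin, was at 23.0, 18.3 and 30 in the double mutant, against 0, 0 and 1.73 in Col-0, and missed the threshold (difference 2.36, limma adjusted p = 0.0967, against 0.0483 with replicate 3 as a term). ETR2, an ethylene receptor, was at 203, 293 and 400 in the double mutant, against 116, 142 and 184 in Col-0, and did not pass (difference 0.97, limma adjusted p = 0.87). ACHT5, an atypical thioredoxin, had a difference of 0.72 with overlapping libraries.

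The hypoxia genes of little-known function held the most called members, with 9 of 16 tested members higher, 0 lower and a median of 3.09. AT3G03270, annotated as a universal stress protein, was at 1721, 1540 and 2565 normalized reads in vrn2-5 prt6-1 and at 18.7, 70.8 and 32.9 in Col-0 (difference 5.54, SE 0.387, limma adjusted p = 5.26e-05). AT4G27450, annotated as an aluminium-induced protein, was at 4553, 4437 and 6312 in the double mutant, against 1357, 1048 and 1233 in Col-0, where it was already well expressed. Per kilobase of length it ranked 84 of 17830 genes in the double mutant and 603 in Col-0, and its difference was 2.06 (SE 0.238, limma adjusted p = 0.00313). AT2G17850 was at 241, 64.2 and 131 in vrn2-5 prt6-1 and was listed at 0 in all 3 Col-0 libraries. If these values of 0 are true counts, its mean was at least 194-fold higher, taking 3 reads over the Col-0 group as the floor. Most of the depth behind that floor came from Col-0 replicate 3. The other 6 that rose were AT4G39675, AT4G10270, AT3G27220, AT1G33055, AT5G66985 and AT4G24110, with differences of 3.06 to 4.89, and in each the double-mutant libraries lay above all Col-0 libraries. AT4G10270 lost its call in 5 of the 6 fits that left out 1 library, all but the one without Col-0 replicate 2. Reads of AT4G10270, annotated as wound-responsive, may be shared with its neighbour AT4G10265, which missed the threshold (difference 2.69, limma adjusted p = 0.0795, against 0.0138 by edgeR and 0.000221 by DESeq2). AT1G19530 was at 930, 390 and 1307 in the double mutant, against 11.2, 0 and 218 in Col-0, where replicate 3 stood far above the others, and it did not pass (difference 4.90, limma adjusted p = 0.414). It passed with the replicate block (limma adjusted p = 0.0351), with replicate 3 as a term (0.0178) and without Col-0 replicate 3 (0.0213), but not by edgeR (0.875) or DESeq2 (0.841). AT4G33560 was at 201, 225 and 263 in the double mutant, against 60, 31.9 and 21.4 in Col-0 (difference 2.55, limma adjusted p = 0.0652, against 0.0483 with replicate 3 as a term, 0.0516 by edgeR and 2.1e-05 by DESeq2).

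**Figure D2:**
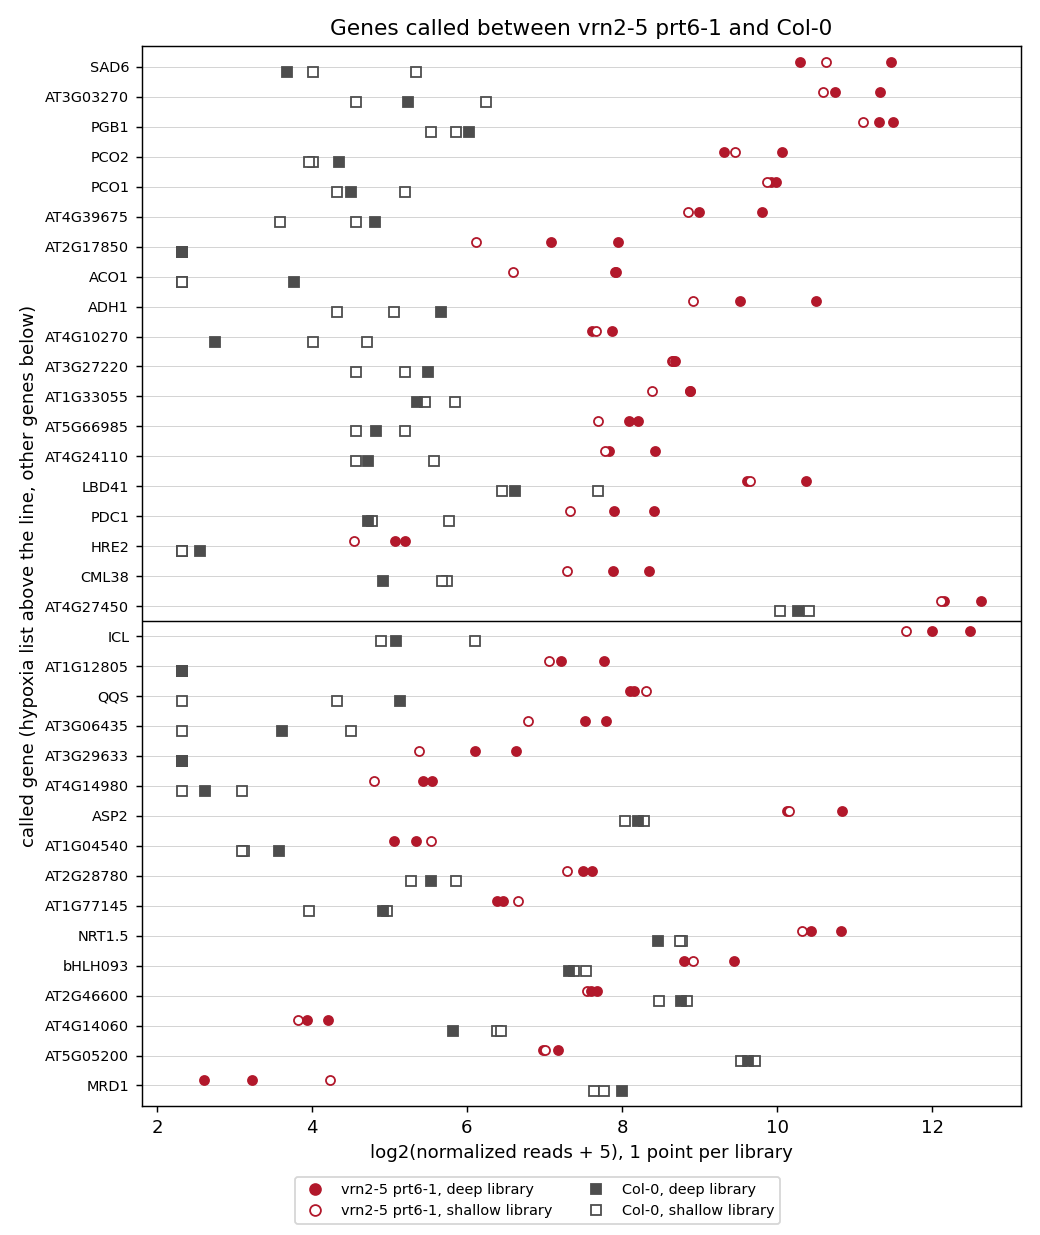
Level of each called gene in every library of vrn2-5 prt6-1 (circles, upper of each pair) and Col-0 (squares, lower), as log2(normalized reads + 5); filled symbols are deep libraries and open symbols shallow ones. In all 35 genes the 3 libraries of the double mutant lie on one side of the 3 of Col-0; members of the hypoxia list are above the horizontal line.

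The largest difference of all was in ICL (AT3G21720), isocitrate lyase, the first enzyme of the glyoxylate cycle that lets seedlings turn stored oil into sugar. It was at 4071, 3246 and 5764 normalized reads in vrn2-5 prt6-1 and at 63.7, 24.8 and 28.9 in Col-0, a log2 difference of 6.69 (SE 0.397, limma adjusted p = 1.69e-05). ICL was the 1 of 15 tested members of its list that rose, 0 fell, and the median was 0.04 (-0.17 within deep and 0.05 within shallow libraries). MLS, malate synthase, the partner enzyme of ICL, was at 101, 91.7 and 86.3 in the double mutant, against 30, 31.9 and 20.5 in Col-0. The groups did not overlap, but the difference of 1.61 missed the threshold (limma adjusted p = 0.0802, against 0.047 with the replicate block, 0.0459 with replicate 3 as a term and 0.0029 by DESeq2). PCK1, which makes phosphoenolpyruvate for sugar synthesis, was at 2771, 2572 and 4815 in the double mutant, against 1410, 1098 and 2900 in Col-0, with overlap. SDP1, a lipase of oil bodies, was listed at 411, 119 and 160 in the double mutant, against 48.7, 0 and 151 in Col-0, and neither of these passed (limma adjusted p = 1 for both). The β-oxidation genes PXA1, ACX1, ACX2, MFP2 and KAT2 lay between -0.27 and 0.01.

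The 11 genes that rose outside the lists were of several kinds. ASP2 (AT5G19550), aspartate aminotransferase, was at 1114, 1137 and 1821 in vrn2-5 prt6-1 and at 307, 258 and 290 in Col-0, a difference of 2.19 (SE 0.261, limma adjusted p = 0.00369). NRT1.5 (AT1G32450), a nitrate transporter that loads the xylem, was at 1381, 1279 and 1805 in the double mutant, against 431, 425 and 347 in Col-0 (difference 1.87, limma adjusted p = 0.0186). bHLH093, a basic helix-loop-helix factor, was at 693, 477 and 440 in the double mutant, against 161, 181 and 154 in Col-0 (difference 1.64, limma adjusted p = 0.0398). In all 3 the groups stood apart, but NRT1.5 and bHLH093 lost their call when any 1 of the 6 libraries was left out, as did AT1G04540, annotated as a lipid-binding C2-domain protein (difference 2.04, limma adjusted p = 0.0494).

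AT1G12805, annotated as a nucleotide-binding protein, was at 144, 128 and 212 in vrn2-5 prt6-1 and was listed at 0 in every Col-0 library. If these values of 0 are true counts, its mean was at least 216-fold higher, with the floor used above. QQS, an orphan gene linked to starch content, was at 280, 312 and 271 in the double mutant, against 15, 0 and 30.3 in Col-0 (difference 4.26, limma adjusted p = 0.00687). AT3G29633 was at 64.0, 36.7 and 93.9 in the double mutant and was listed at 0 in every Col-0 library. On the same condition it was at least 86.8-fold higher. The remaining 4, AT3G06435, AT4G14980, AT2G28780 and AT1G77145, had differences of 3.89, 2.58, 1.91 and 1.89. AT4G14980 lost its call without vrn2-5 prt6-1 replicate 1 or 3 and without Col-0 replicate 1 or 3, AT1G77145 without any 1 double-mutant library, and AT3G06435 without double-mutant replicate 1 or 3. AT1G77145 lies on chromosome 1 at 28989838 to 28991454, in the same region as ADH1.

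The 4 genes that fell shared no list. AT5G05200, annotated as a chloroplastic protein kinase of the aarF type, was at 121, 124 and 140 in vrn2-5 prt6-1 and at 735, 832 and 784 in Col-0. Both genotypes were tight, and the difference of -2.57 (SE 0.114, limma adjusted p = 1.76e-06) had the smallest standard error of all called genes. MRD1 was at 1.11, 13.8 and 4.33 in the double mutant, against 195, 212 and 251 in Col-0 (difference -4.45, SE 0.418, limma adjusted p = 0.000573). AT4G14060, annotated as an MLP-like protein, was at 13.5, 9.17 and 10.3 in the double mutant, against 78.7, 81.4 and 51.4 in Col-0 (difference -2.22, limma adjusted p = 0.0186). AT2G46600, the calcium-binding EF-hand protein KIC, was at 200, 183 and 189 in the double mutant, against 454, 351 and 427 in Col-0 (difference -1.08, limma adjusted p = 0.0186). AT4G14060 and AT2G46600 each lost their call in 5 of the 6 fits that left out 1 library, whereas AT5G05200 and MRD1 kept theirs in all 6. Of the called genes with coordinates, 1, AT4G14060, lay within 2 Mb of VRN2 (3.57% of them, against 3.64% of genes tested), and 1, AT5G05200, lay within 2 Mb of PRT6 (3.57% against 2.81%).

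The next comparison asked where the double mutant differed from each single mutant. Against prt6-1, no gene passed: limma, edgeR and DESeq2 each called 0. The unadjusted p was under 0.05 for 191 genes by limma (1.14%, with 0.725% higher and 0.41% lower), for 151 by edgeR and for 102 by DESeq2. The limma share lies under the 0.05 that this threshold passes on average where no gene differs. The fit may therefore be strict in this comparison, which limits what 0 calls can show. For the 31 genes that rose over Col-0, the difference between vrn2-5 prt6-1 and prt6-1 ran from -0.37 to 0.78 with a median of 0.15. PCO1 had a mean of 968 ± 39.7 normalized reads in the double mutant and 959 ± 134 in prt6-1 (SD, n = 3 each), a log2 difference of 0.02 with a 95% interval of -0.50 to 0.54. ICL had 4360 ± 1284 in the double mutant and 3842 ± 551 in prt6-1 (SD, n = 3 each), a difference of 0.15 with an interval of -0.72 to 1.03. AT5G05200, the tightest of the genes that fell, differed by 0.00 with an interval of -0.25 to 0.25. These intervals are not adjusted for the number of genes, and they left out 0 for 2 of the 35, AT1G04540 (0.78, interval 0.03 to 1.54) and AT4G14060 (-1.09, interval -1.81 to -0.37). A missed threshold does not show that the 2 genotypes act alike, and for single genes the intervals were 0.50 to 2.72 wide on the log2 scale.

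Against vrn2-5, 33 genes rose (0.196% of those tested) and 2 fell (0.0119%) in the double mutant, 0.208% together. At an unadjusted p under 0.05 there were 6.18%, with 3.66% higher and 2.51% lower. Of the 31 genes that rose over Col-0, 27 also rose over vrn2-5, and of the 4 that fell, AT5G05200 fell (difference -2.51, limma adjusted p = 4.05e-06). Both comparisons with a single mutant reuse the double-mutant libraries by which these genes were called. Their counts and medians are therefore a description and not independent of that choice. The other gene lower than in vrn2-5 was AT1G49860, named after its values were seen, at 60.1, 96.3 and 68.7 in the double mutant, against 301, 285 and 238 in vrn2-5 (difference -1.82, limma adjusted p = 0.0074). Those not called among the 31 were QQS and AT3G29633, with differences of -0.19 and 0.06, and AT1G04540 and AT1G77145, with 1.43 and 1.56. QQS had a mean of 287 ± 21.6 in the double mutant, 255 ± 55.1 in prt6-1 and 334 ± 67.9 in vrn2-5 (SD, n = 3 each), with every mutant library above every Col-0 library. AT3G29633 had 64.9 ± 28.6 in the double mutant, 81.7 ± 19.3 in prt6-1 and 62.2 ± 26.2 in vrn2-5 (SD, n = 3 each), and it was listed at 0 in Col-0. MRD1 was near 0 in all mutants, at 6.40 ± 6.57 in the double mutant, 1.16 ± 1.01 in prt6-1 and 0.177 ± 0.307 in vrn2-5 (SD, n = 3 each). PTR1, a peptide transporter, was at 173, 59.6 and 104 in vrn2-5 prt6-1, was listed at 0 in every vrn2-5 library, and was at 48.7, 67.3 and 69.6 in Col-0 (difference from vrn2-5 4.43, limma adjusted p = 0.00368; from Col-0 0.71, adjusted p = 1). AT1G03220, annotated as an aspartyl protease, was at 1573, 1306 and 1070 in the double mutant, higher than in vrn2-5 (305 ± 32.6, SD, n = 3; difference 2.08, limma adjusted p = 0.000334), and 1286, 871 and 1023 in Col-0 (difference from Col-0 0.31, limma adjusted p = 1).

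The single mutants share the Col-0 libraries with the double mutant, so their values are given side by side only. For the 31 genes that rose, the median difference from Col-0 was 3.57 in vrn2-5 prt6-1, 3.21 in prt6-1 and -0.14 in vrn2-5. Over all 16820 genes tested, 31 were called against Col-0 in prt6-1 and 4 in vrn2-5, in either direction. Of the 31 that rose in the double mutant, 27 were called higher than Col-0 in prt6-1, and 2 in vrn2-5 (QQS and AT3G29633). For the 4 that fell in the double mutant, the medians were -2.39 there, -1.85 in prt6-1 and -0.60 in vrn2-5. A test of whether the double mutant departed from the sum of both single-mutant differences called 1 gene, 0.00595% of those tested, while 1.34% had an unadjusted p under 0.05 (0.85% above and 0.488% below the sum). It was MRD1 (6.18 on the log2 scale, SE 0.591, limma adjusted p = 0.00895). Each single mutant already had MRD1 at about 0 reads, with differences from Col-0 of -5.19 in prt6-1 and -5.43 in vrn2-5, so the sum lies below what the scale can hold. A positive departure was therefore fixed by that floor, and nothing is read from the call. MRD1 missed the threshold in that test by edgeR (adjusted p = 0.0532), without Col-0 replicate 1 (limma adjusted p = 0.065) and with a pseudocount of 1 (limma adjusted p = 0.0762). Among the named genes besides MRD1, DESeq2 called AT1G03220 (1.69, adjusted p = 3.68e-05) and PTR1 (8.22, adjusted p = 3.26e-06) above the sum. It called QQS (-3.9, adjusted p = 3.26e-06) and AT3G29633 (-8.12, adjusted p = 4.09e-07) below it. By limma their adjusted p was 0.325, 0.557, 0.639 and 0.133. AT1G03220 was far from 0 in every genotype, with means of 1316 in the double mutant, 1408 in prt6-1, 305 in vrn2-5 and 1060 in Col-0. AT5G24240, annotated as a phosphatidylinositol 4-kinase, was at 1.77, 9.17 and 5.14 in the double mutant, against 30, 70.8 and 51.7 in Col-0, and was not called (difference -2.42, limma adjusted p = 0.175).

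**Figure D3:**
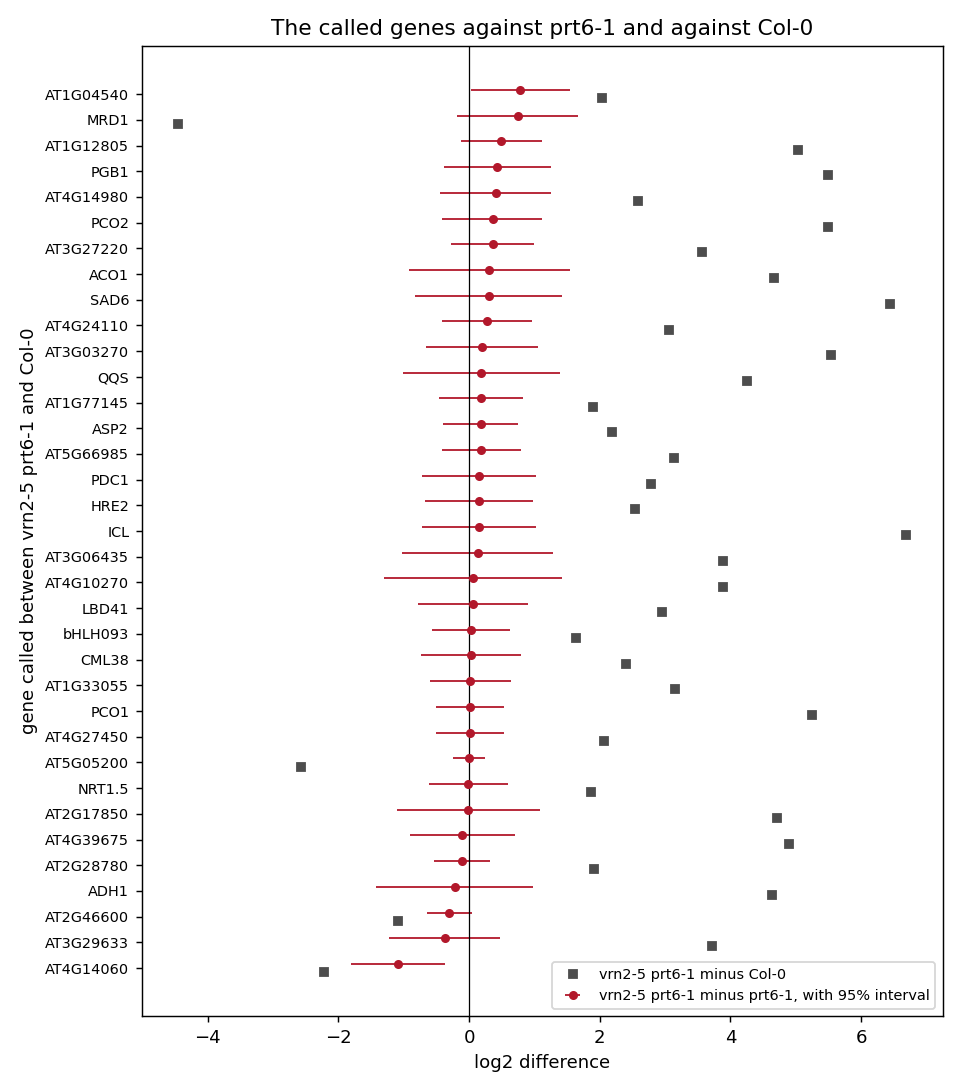
The 35 called genes with the log2 difference of vrn2-5 prt6-1 from prt6-1 (circles, bars are 95% intervals, not adjusted) and from Col-0 (squares). Differences from prt6-1 lie between -1.09 and 0.78, while differences from Col-0 lie between -4.45 and 6.69.

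Genes of the N-degron pathway itself were described next. Of 14 tested, 0 rose and 0 fell, and the median was 0.10. Its sign differed between the depth classes, at -0.24 within deep libraries (2 of 14 positive) and 0.23 within shallow ones (10 of 14). Whether depth or replicate lies behind this cannot be told apart. The group VII factors that are made constitutively did not pass: RAP2.12 had a difference of 0.15 and RAP2.2 one of 0.06. RAP2.3 was at 1901, 2104 and 2691 in vrn2-5 prt6-1 and at 3738, 2411 and 4583 in Col-0, and did not pass (difference -0.65, limma adjusted p = 0.877). PCO3, PCO4 and PCO5, oxidases not known as hypoxia genes, differed by 0.00, 0.19 and 0.00. BIG was listed at 0, 413 and 0 in the double mutant, against 18.7, 3.54 and 8.95 in Col-0. Since BIG was at 0 in both deep double-mutant libraries, a value of 0 in this table may be a failed estimate and not the absence of a transcript, and this bears on the genes listed at 0 in Col-0.

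Phytochrome interacting factors (PIF) are transcription factors that drive stem elongation in shade and warmth, and the list used here holds known PIF and shade-induced genes. Of 28 tested, 0 rose and 0 fell by limma, while 25 were positive with a median of 0.87, against 0.01 for all genes. At an unadjusted p under 0.05, 10 of the 28 were higher and 0 lower, against 2.94% and 2.24% of all genes. The median was 0.71 within deep and 0.67 within shallow libraries. CKX5, a cytokinin oxidase, was at 113, 147 and 96.6 normalized reads in vrn2-5 prt6-1 and at 26.2, 42.5 and 50.2 in Col-0. Its groups stood apart, and the difference of 1.49 (SE 0.307) had a limma adjusted p of 0.183 and a DESeq2 adjusted p of 0.0397. SAUR23, a small auxin-induced growth gene, was at 162, 124 and 83.8 in the double mutant, against 45, 24.8 and 56.6 in Col-0 (difference 1.46, limma adjusted p = 0.202). SAUR20 was at 202, 202 and 73.8 in the double mutant, against 60, 70.8 and 40.4 in Col-0 (difference 1.3, limma adjusted p = 0.635). In both genes replicate 3 was the lowest library of the double mutant. SAUR19 to SAUR24 are near-identical tandem copies that may share reads, so the 6 are not separate evidence. All 6 are among the 10 that were higher at an unadjusted p under 0.05. HAT2, IAA19, BEE1 and IAA29 had differences of 1.08, 1.42, 1.33 and 2.58, with no overlap between the groups and no call. Within deep libraries these were 0.61, 0.52, 0.62 and 0.4, and within shallow ones 1.42, 2.32, 1.8 and 3.49. IAA29 was listed at 60, 0 and 193 in Col-0, so its difference leans on the value of 0 in replicate 2.

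Set against prt6-1, which shares the double-mutant libraries with the comparison above, 27 of the 28 PIF and shade genes were positive with a median of 0.81, and 0 were called. Of the 28, 12 were higher at an unadjusted p under 0.05, against 0.725% of all genes. CKX5 was 1.09 higher than in prt6-1 (95% interval 0.41 to 1.76) and SAUR23 was 0.98 higher (0.30 to 1.66), with a limma adjusted p of 1 for both. On the log2 scale, the list averaged 1.02, 0.88 and 0.55 relative to Col-0 in the double-mutant libraries, against -0.41, 0.09 and 0.43 in prt6-1. The gap was narrow in replicate 3, at 0.55 against 0.43. Against vrn2-5 the median was 0.43, with 0 genes at an unadjusted p under 0.05. The double mutant had the highest of the 4 genotype means in 21 of the 28 genes (75.0%), against 23.9% of all genes tested. SAUR19 to SAUR24 are counted singly in all these shares, and each lies among the 21. The list was chosen with earlier results of these data known, so its counts are a description. For reference, the median difference from Col-0 was 0.02 in prt6-1 and 0.42 in vrn2-5, both of which share the Col-0 libraries with the double mutant.

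Early auxin-response genes gave smaller values. Of 17 tested, 0 were called, 16 were positive, and the median was 0.27. SAUR15 was at 87.5, 87.1 and 18.7 in vrn2-5 prt6-1 and at 11.2, 17.7 and 15.3 in Col-0, and replicate 3 of the double mutant lay just above Col-0 (difference 1.58, limma adjusted p = 0.69). IAA3, an Aux/IAA repressor, was at 759, 651 and 452 in the double mutant, against 472, 351 and 404 in Col-0 (difference 0.57, limma adjusted p = 0.806). IAA2 had a difference of 0.69, with 1.05 within shallow and 0.08 within deep libraries.

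**Figure D4:**
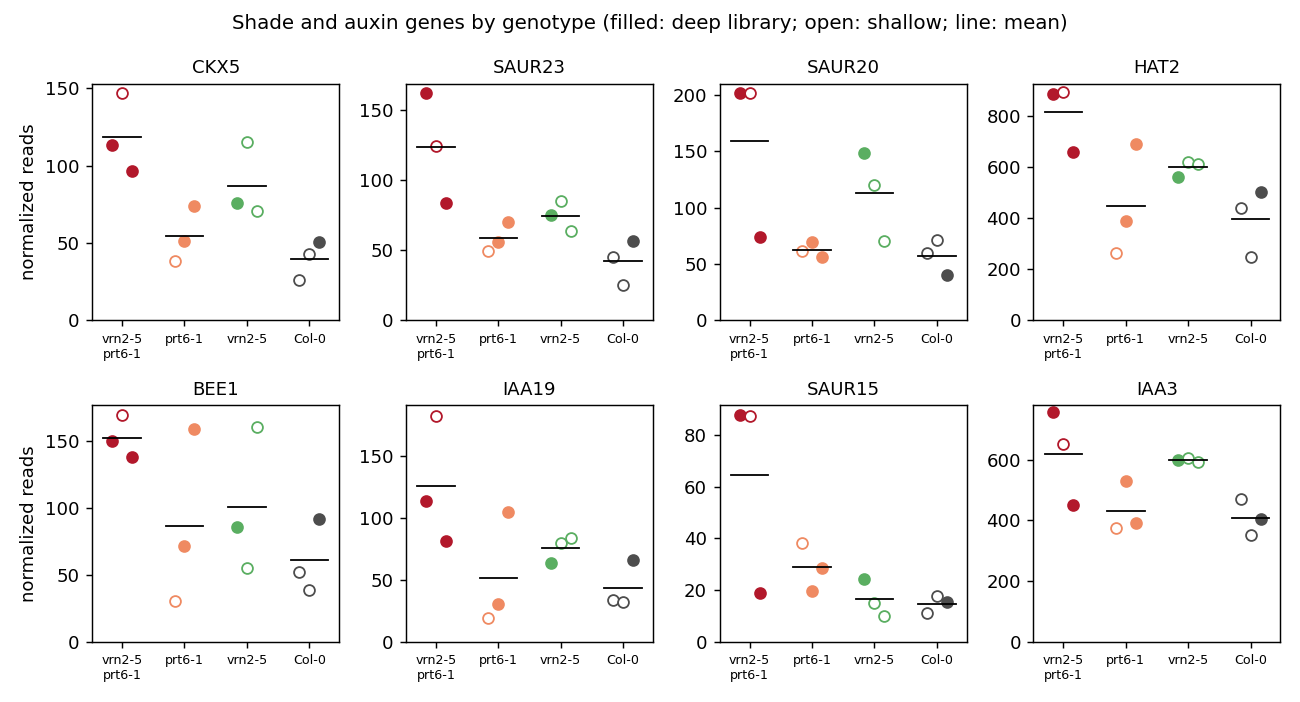
Normalized reads per library of 8 genes of the shade and auxin lists in vrn2-5 prt6-1, prt6-1, vrn2-5 and Col-0 (1 point per library, filled for deep and open for shallow libraries, line at the mean). In CKX5, SAUR23, SAUR20, HAT2, BEE1, IAA19 and SAUR15 the 3 libraries of the double mutant lie above those of Col-0, and none of the 8 genes was called by limma.

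Polycomb genes and their known developmental targets gave no call. Of 16 genes of the Polycomb machinery, 0 rose and 0 fell, and the median was 0.12 (-0.01 within deep and 0.15 within shallow libraries). JMJ13, a demethylase of H3K27me3, was listed at 75.1, 115 and 56.0 in vrn2-5 prt6-1 and at 0, 0 and 35.5 in Col-0, and BMI1B, a PRC1 subunit, was listed at 44.8, 0 and 44.9 in the double mutant, against 56.2, 67.3 and 52.8 in Col-0. RING1B, another PRC1 subunit, had a difference of 1.08 with overlapping libraries. Of 25 developmental targets, 8 could be tested, 0 were called, and the median was 0.43. At an unadjusted p under 0.05 by limma, 3 of the 8 were higher and 2 lower, against 2.94% and 2.24% of all genes. In 5 of the 8 all double-mutant libraries lay above all Col-0 libraries and in 2 below, against 5.23% and 4.06% of all genes. FLC (AT5G10140), the repressor of flowering that Polycomb silences in winter, was at 151, 119 and 205 in the double mutant, against 82.5, 56.6 and 102 in Col-0. These groups stood apart, with a difference of 0.94 that did not pass (limma adjusted p = 0.401). SOC1, a flowering activator that FLC represses, was at 68.9, 55.0 and 92.8 in the double mutant, against 127, 145 and 211 in Col-0 (difference -1.10, limma adjusted p = 0.702). KNAT1, a meristem homeobox gene, was at 168, 160 and 147 in the double mutant, against 101, 145 and 97.3 in Col-0, with a difference of 0.47 that was not called.

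The peak lists deposited for VRN2-YFP and the H3K27me3 tables come from other plants than the double mutant, so they describe the called genes in vrn2-5 complemented with VRN2-YFP under the VRN2 promoter, and in vrn2-5 and Col-0. A gene was counted as bound or marked where its body or the 1 kb upstream overlapped a peak or region by at least 1 bp in 2 or more of the 3 replicates. Of the 25 genes that rose and have coordinates, 3 were bound by VRN2-YFP (AT1G12805, AT2G28780 and AT1G77145), or 12%, against 3.42% of all 16351 genes tested with coordinates. H3K27me3 marked 14 of the 25 (56.0%), against 22.8% of all genes. Several of the 25 were at or near 0 in Col-0, such as AT1G12805 and AT3G29633. No background of equally low genes was drawn, so whether the share exceeds that of low genes was not tested. In 4 of the 25 (SAD6, PCO2, AT1G12805 and ADH1) the authors' tables gave a lower mark in vrn2-5 than in Col-0. This held at a false discovery rate under 0.05 in at least 2 replicates, for 16% against 7.96% of all genes. Only a marked gene can be counted so, and among marked genes it was 4 of 14, against 1301 of 3722. In 1 of the 25, AT3G29633, the mark was higher (4%, against 2.29% of all genes). Among marked genes that was 1 of 14, against 374 of 3722. The table headers call the libraries A and B, and A was read as vrn2-5 from the order of the comparison name. If A were Col-0, every direction would turn: 4 of the 25 would have a higher mark in vrn2-5, against 7.96% of all genes, and 1 a lower one, against 2.29%. Of the 3 fallen genes with coordinates, 0 were bound, 2 (AT2G46600 and AT4G14060) were marked, and 1 (AT4G14060) had a higher mark under the same reading.

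Lists of other tissues and states were read to see what moved with the comparison. Of 17 photosynthesis genes tested, 0 were called and 2 were positive, with a median of -0.26. This shift went the other way in deep libraries, at 0.16, against -0.30 in shallow ones. The summed level of the list was 483222 to 714933 in vrn2-5 prt6-1 and 554925 to 1025670 in Col-0, so the ranges overlapped. LHCB4.1, LHCA3 and LHCA2, light-harvesting proteins, had differences of -0.43, -0.35 and -0.33. Root markers had a median of 0.05 over 7 genes, with 0.58 within deep and -0.20 within shallow libraries. PHT1;1, EXPA18 and PRP3 were at 0.18, 0.34 and 0.30, and 0 of 12 seed maturation markers could be tested. Senescence markers were negative in 6 of 6 genes with a median of -0.49 (-1.04 within deep and -0.35 within shallow libraries), led by WRKY53 at -1.20, NAP at -0.72 and ORE1 at -0.58, and 0 were called. Clock genes had a median of -0.32 over 11 genes (-0.80 within deep and 0.01 within shallow libraries), with GI at -0.85, LHY at 0.83 and PRR7 at -0.51.

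Replicate 3 stood apart in each of the 4 genotypes. CHS, chalcone synthase of the flavonoid pathway, was at 982, 830 and 211 in vrn2-5 prt6-1 and at 825, 871 and 173 in Col-0, with replicate 3 the lowest in both. FLS1 and CHI of the same pathway had differences of 0.21 and 0.36, and over 6 flavonoid genes the median was 0.08, with 1.21 within deep and -0.14 within shallow libraries. Abscisic acid and cold genes, higher in replicate 3, had a median of 0.05 over 14 genes (-0.42 within deep and -0.04 within shallow libraries); COR15A was at 1.31, KIN1 at 0.94 and HAI1 at -1.92, none of them called. Salicylate genes had a median of -0.06 over 6 genes (0.10 within deep and -0.02 within shallow libraries), with ICS1 at 0.47, PR5 at 0.41 and WRKY70 at -0.39. With replicate 3 as a term, 4 of the 54 named genes that were not called passed the threshold (AT1G19530, AT4G33560, NIP2;1 and MLS), and with depth class as a term 0 of the 54 did. Of the 35 called genes, 1 lost its call with replicate 3 as a term and 5 with depth class as a term.

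**Figure D5:**
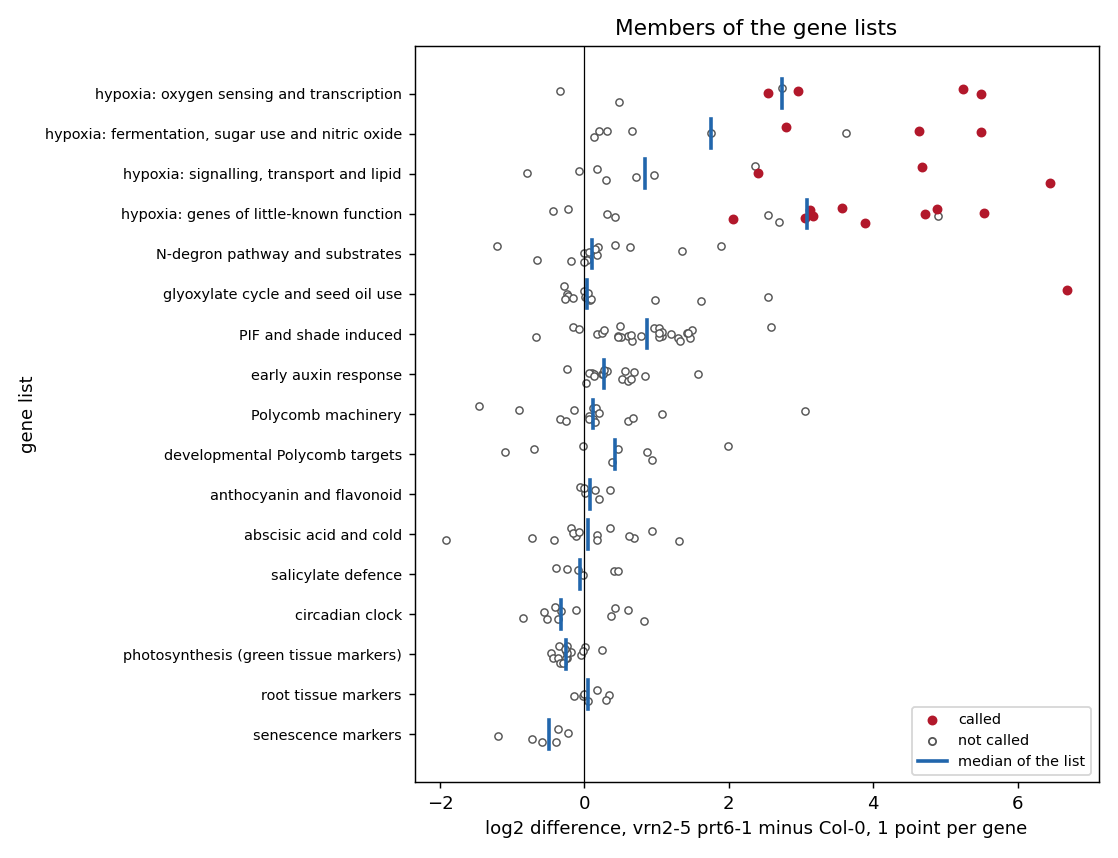
Log2 difference between vrn2-5 prt6-1 and Col-0 for each tested member of the gene lists (1 point per gene, filled where called, blue line at the median of the list). The 4 hypoxia groups hold 19 called members with medians of 0.84 to 3.09, ICL is the only called member elsewhere, and the PIF and shade list has a median of 0.87 with 0 called.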

How the data were processed

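The authors deposited, for 12 seedling mRNA libraries, a normalized signal per gene, which is reads divided by 1 size factor per library. Each library's values were multiples of a single step, so dividing by that step returned reads, which were whole (tolerance 0.01) in 100% of values. Per the submitters' processing notes, Bowtie, DESeq2 and TAIR10 were named for RNA, and BWA, MACS2, MACS3 and SICER for immunoprecipitations. Their versions and settings, and whether counting used strand, are not given here, so overlapping and antisense genes cannot be told apart. Columns were matched to samples by genotype and replicate number, and 0 sample columns were left unused.

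Limma 3.58.1 in R 4.3.3, with a trended prior, was fitted to log2(signal + 5) in the 12 libraries on genotype alone, keeping the 16820 of 18480 genes whose mean reached 10. P-values were adjusted over all 16820 genes by the Benjamini-Hochberg method, and genes under 0.05 were called. The test was checked on simulated data. EdgeR 4.0.16 and DESeq2 1.42.0 were run on the recovered reads, and figures were drawn with matplotlib 3.10.9. Intervals and floors cover counting error only where they come from reads. No pair of replicates agreed within sampling noise, so all were counted.

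Gene positions, lengths and annotations come from the rosette table the authors deposited, and RefSeq's TAIR10.1 table served for names, matching 18416 of 18480 genes. Per the file format, the deposited peak lists hold a fold enrichment (ratio) and a −log10 q-value per peak, and they were used by position only. Per the file headers, the H3K27me3 tables give a fold ratio of 2 libraries and a false discovery rate (p-value adjusted by the authors).

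Named were VRN2, PRT6, every called gene, the called members of each list and its 3 uncalled members with the smallest unadjusted p, and 7 genes named in earlier work on these data; further list members were named after their values were seen. The members and lists were chosen with earlier results of these data known. Alternatives covered the pseudocount, filters, scaling, tools, covariates and left-out libraries. The fits within deep libraries, within shallow libraries and over the 8 libraries of replicates 1 and 2 were added after seeing the data.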

Additional observations from a re-analysis of the deposited data

Results flagged for a closer look

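The double mutant departed from the sum of both single-mutant differences in MRD1, by 6.18 on the log2 scale (SE 0.591, limma adjusted p = 0.00895), in a test of whether the vrn2-5 difference is the same with and without prt6-1. MRD1 was at 6.40 ± 6.57 normalized reads in vrn2-5 prt6-1, 1.16 ± 1.01 in prt6-1, 0.177 ± 0.307 in vrn2-5 and 220 ± 28.7 in Col-0 (SD, n = 3 each). It was at or near 0 in all 9 mutant libraries, the highest being double-mutant replicate 2 at 13.8. With both single mutants already at about 0, the sum of their differences lies below what the scale can hold, so the sign of the departure was fixed by that floor and a differing effect is not shown.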

How the results depend on the processing

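The 35 called genes kept their direction in every setting run. For fits on fewer libraries this was fixed in advance, since their groups do not overlap. EdgeR (38 called) and DESeq2 (68) called all 35. Over the 6 fits that each left out 1 library, 23 to 53 genes were called (21 to 50 higher, 2 to 3 lower; lowest without vrn2-5 prt6-1 replicate 1, highest without Col-0 replicate 3), and 23 of the 35 were called in all 6. Lower genes numbered 2 with a mean of at least 50, 2 with the 6 libraries alone, and 16 by DESeq2, which called 52 higher. With replicate 3 as a term 57 genes were called, 40 higher and 17 lower. Same-numbered samples of replicate 3 deviated together (correlations of 0.288 to 0.56 over 6 pairs), while those of replicate 1 (-0.215 to 0.26) and replicate 2 (-0.216 to 0.219) did not all do so, and the labels tie no number to a batch, so the numbers as a whole were not taken as pairs; the replicate block gave 44 called, 34 higher and 10 lower, 32 of them shared. Over the 8 libraries of replicates 1 and 2, 64 were called (53 higher, 11 lower; 25 shared). Within deep libraries, 6 genes were called, 6 higher and 0 lower, with 5 hypoxia genes; within shallow libraries 0 were called by limma (731 at an unadjusted p under 0.05), 0 higher, 0 lower and 0 hypoxia genes, with fewer samples in both. Against vrn2-5, 6 and 0 of the named genes were called there, against 30. Of the PIF and shade list, DESeq2 called 1 (CKX5) and the 8 libraries 1 (SAUR20). Departures from additivity numbered 0 with a mean of at least 50 (MRD1 adjusted p = 1), by edgeR, within deep, within shallow and in the 8 libraries, 5 by DESeq2 and 0 to 2 with a library left out (0 when Col-0 replicate 1 was left out, 2 when its replicate 2 was); with a pseudocount of 1 the gene called was AT3G29633 and not MRD1; the 6 libraries alone give no such value. Reversed were PR5 (-0.09 within deep), PRP3 (-0.07 without double-mutant replicate 1, -0.14 within shallow, up to 0.58 with a library left out), PHT1;1 (-0.01 without double-mutant replicate 1, -0.08 without Col-0 replicate 3, -0.20 within shallow, up to 0.42), FLS1 (-0.17, -0.22 and -0.61 without double-mutant replicate 1 or 2 or Col-0 replicate 3, up to 1.02) and CHS (-0.25, -0.13 and -0.60 likewise, up to 0.84, -0.03 within shallow). The cause was not tested. A single read in a shallow library is worth up to 4.58 normalized reads, which limits low genes.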
